A study of Mus musculus with 8 samples.

Results

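The AP-1 family comprised 10 mouse genes: Fos, Fosb, Fosl1, Fosl2, Jun, Junb, Jund, Atf3, Batf and Batf3. Its chromatin was followed in BV2 cells, an immortalised mouse microglial line, by ATAC-seq, a method that reads open chromatin from where the transposase Tn5 can insert adapters. A member region was any stretch covered by overlapping peaks of at least 1 library that lay within 10 kb of a member's gene body in GRCm38. These regions numbered 24 of the 40784 in all libraries together, and each of the 10 genes, of 49943 annotated, had at least 1, as did 69.5% of the 21887 protein-coding genes. The farthest region inside the distance lay 9719 bp from a gene body (Fos), and the nearest outside it lay 10347 bp away (Atf3).

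Each of 4 groups held 2 biological replicates, which gave 8 libraries. Monocultures held BV2 cells alone, co-cultures held BV2 cells on a layer of the mouse glioma line GL261, and both were then kept for 16 h at 21% oxygen (normoxia) or below 0.1% oxygen (hypoxia). In every group the cells were fixed with formaldehyde, and the labels describe sorting for the leukocyte antigen CD45 or for GFP before transposition, without saying for each library which was used. All 8 libraries came from 1 cell line, and the co-cultures can hold residual glioma cells. P-values given here measure the spread between these replicates.

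AP-1 is a set of dimers built from proteins with a basic region and a leucine zipper. The Jun proteins pair with each other or with Fos proteins, whereas Fos proteins need a Jun partner, and Atf3, Batf and Batf3 also pair with Jun proteins. Several of the genes are immediate early genes, transcribed within minutes of a stimulus, and in macrophages and microglia AP-1 binds enhancers together with lineage factors such as PU.1. The dimers bind the letters TGACTCA or the related cyclic AMP response element TGACGTCA.

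The start of the gene was covered by a region for 5 of the 9 members with a known start position (Jun, Fos, Fosb, Atf3 and Batf; 55.6%), and for 41.5% of 17492 protein-coding genes counted the same way. The 250 bases before the start are shown for Jun, which a peak covered whole in every library, and for Fos, Fosb and Atf3, which peaks covered whole in some libraries and not at all in others. They come from RefSeq, GRCm38.p6, and are written 5′ to 3′ on the strand of the gene. Capitals mark TATAAA, the hypoxia response core GCGTG, the GC box GGGCGG, and in Jun the elements TTACCTCA and TGACATCA, each on either strand.
Jun, chr4:95052223-95052472, minus strand: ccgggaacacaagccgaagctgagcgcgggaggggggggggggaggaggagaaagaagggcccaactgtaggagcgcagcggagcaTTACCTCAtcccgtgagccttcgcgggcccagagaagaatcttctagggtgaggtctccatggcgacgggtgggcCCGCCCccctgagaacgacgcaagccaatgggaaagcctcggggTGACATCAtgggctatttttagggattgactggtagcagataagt
Fos, chr12:85473640-85473889, plus strand: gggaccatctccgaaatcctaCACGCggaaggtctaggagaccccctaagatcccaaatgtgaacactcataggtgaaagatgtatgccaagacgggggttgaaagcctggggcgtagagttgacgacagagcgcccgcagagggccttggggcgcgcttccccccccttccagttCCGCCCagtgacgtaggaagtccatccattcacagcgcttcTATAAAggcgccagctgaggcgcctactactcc
Fosb, chr7:19310046-19310295, minus strand: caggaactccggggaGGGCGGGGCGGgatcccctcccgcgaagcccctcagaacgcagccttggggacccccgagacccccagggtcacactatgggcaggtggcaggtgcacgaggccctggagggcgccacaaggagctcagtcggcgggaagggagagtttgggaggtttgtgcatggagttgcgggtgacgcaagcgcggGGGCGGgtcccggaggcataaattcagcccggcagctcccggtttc
Atf3, chr1:191183334-191183583, minus strand: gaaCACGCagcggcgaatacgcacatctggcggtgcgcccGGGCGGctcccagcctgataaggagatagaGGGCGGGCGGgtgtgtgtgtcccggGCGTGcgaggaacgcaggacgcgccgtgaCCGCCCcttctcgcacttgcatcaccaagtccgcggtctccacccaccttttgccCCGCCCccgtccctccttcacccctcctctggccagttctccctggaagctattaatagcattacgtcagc
In the Jun sequence TTACCTCA stood 164 to 157 bp and TGACATCA 45 to 38 bp before the start. Both are known elements of the Jun promoter, are bound by dimers of Jun and Atf proteins, and were added to the search after the sequence was seen. They were found in 0.728% and 2.93% of 32851 mouse promoter windows of this length. A peak covered all 250 bases of the Jun window in all 8 libraries. In Fos, TATAAA lay 33 to 28 bp and GCGTG, on the other strand, 229 to 225 bp before the start, and a peak covered the whole window in 5 libraries. In Fosb only GGGCGG was found, at 3 positions of which 2 overlap, and peaks covered 229 and 250 bases in the 2 libraries of hypoxic co-culture and none in the other 6. Atf3 held GCGTG at 2 positions, 155 to 151 bp before the start and, on the other strand, 247 to 243 bp before it. The Atf3 window was covered whole in the 2 libraries of hypoxic co-culture. In the other libraries the cover of that window ran from 0 to 152 bases.

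Of the 9 members with a promoter window (none was given for Fosl1), none held TGACTCA or its reverse complement TGAGTCA, which 4.46% of all windows held. None held the exact letters TGACGTCA (1.55% of windows) or the serum response factor site named the CArG box (1.47%). Apart from the elements added for Jun, near forms of TGACGTCA were not searched, nor was sequence farther upstream. In the sequences shown, Atf3 holds TTACGTCA, which differs from TGACGTCA in a single base. Fos holds TGACGTAG, which shares only the letters TGACGT with it. The absence of exact matches therefore does not show that these genes lack such elements. GGGCGG was in 7 of the 9 against 32.7% of all windows, GCGTG in 3 against 28.2%, ACGTG in 2 (Jund and Batf3) against 16.6%, and TATAAA in Fos alone against 12.4%. Of the 9 member windows, 7 had a GC content of 58.4% to 76%, where the median of all windows was 52.4%, and the shares over all windows are not matched for it. ACGTG and GCGTG are forms of the core bound by hypoxia inducible factors. A match describes the letters only.

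The deposited lists held between 9910 and 29658 peaks per library, and the number of reads behind them is not known. The 2 shortest lists were those of monoculture normoxia, with 13333 and 9910 peaks. Because list length differed, each peak is given as its percentile by −log10 p within its own list, and counts are given again for the best 9910 peaks of each list (lists of equal number). In bulk chromatin, fewer cells with an open site and less opening per cell cannot be told apart. Of 15 microglial and macrophage markers, 3 to 4 had a peak within 1 kb of the gene's ends in monoculture normoxia and 8 to 9 in the other libraries. Ptprc, which encodes CD45, had one in all 8 libraries, and Csf1r, Aif1, Itgam, C1qa and Coro1a had one in none. Of 15 glioma and glial markers, none had a peak in monoculture, 0 to 2 in co-culture normoxia and 2 in each library of co-culture hypoxia. These were Sox2 in 3 libraries, Nes in 2 and S100b in 1.

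Jun had the highest-ranked peak of the family in every library. Counted over the family, member regions with a peak were most numerous in hypoxic co-culture and fewest in monoculture normoxia, though the 2 regions of Atf3 had peaks together only in monoculture hypoxia, and the 2 libraries of hypoxic co-culture alone had a peak near all 10 genes. The count was 8 and 3 genes in monoculture normoxia and 9 in each of the other 4 libraries. Protein-coding genes with such a peak made up 42.8% and 35.8% in monoculture normoxia, 64.5% and 60.5% in co-culture hypoxia and 57.5% to 59.9% in the other 4. Monoculture normoxia had 9 and 3 of the 24 member regions, monoculture hypoxia 16 and 16, co-culture normoxia 11 and 12, and co-culture hypoxia 21 and 17. As group means these were 6 ± 4.24, 16 ± 0, 11.5 ± 0.707 and 19 ± 2.83 regions (SD, n = 2 each). Hypoxic libraries thus held 8.75 more member regions than normoxic ones on average, and co-cultures 4.25 more than monocultures, values that get no test here. Without monoculture normoxia 2 the culture difference was 2.75. In monoculture normoxia the members' shares were 37.5% and 12.5%, beside 30.8% and 23.1% of all 40784 regions. They were 66.7% and 66.7% in monoculture hypoxia, beside 57.3% and 62.3%. In co-culture normoxia they were 45.8% and 50%, beside 51.7% and 51.5%, and under hypoxia in co-culture 87.5% and 70.8%, beside 70.7% and 51.5%.

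**Figure D1:**
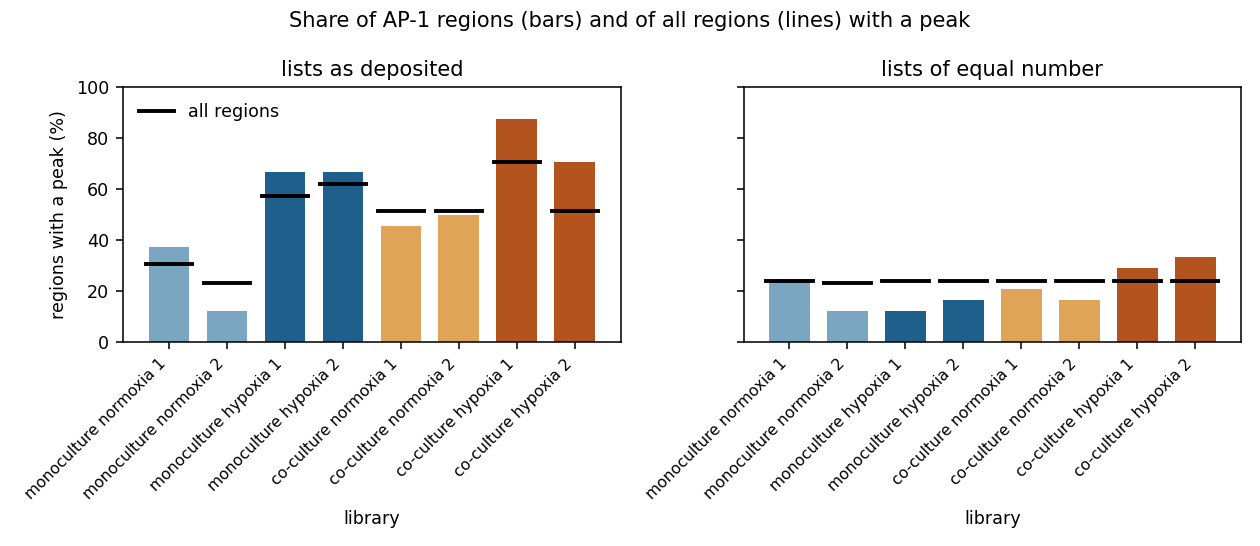
Share of regions with a peak in each library (y axis, percent), as bars for the 24 member regions and as black lines for all 40784 regions, in the lists as deposited and in lists of equal number. In the lists of equal number the members stand at 29.2% and 33.3% in co-culture hypoxia and between 12.5% and 25% in the other 6 libraries.

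With the lists at equal number the groups stood closer together. The member regions then numbered 6 and 3 in monoculture normoxia, 3 and 4 in monoculture hypoxia, 5 and 4 in co-culture normoxia, and 7 and 8 in co-culture hypoxia. The members' shares were 25% and 12.5%, 12.5% and 16.7%, 20.8% and 16.7%, and 29.2% and 33.3% in the same order, beside 23.1% to 24.2% of all regions, so all lay within a few regions of that background. The difference between hypoxia and normoxia was 1 region and that between co-culture and monoculture 2 regions. The hypoxia difference in co-culture minus that in monoculture was 4 regions, against −2.5 in the lists as deposited. With the deposited lists it was also 0.5 without monoculture normoxia 2 and −5.5 without monoculture normoxia 1, so its sign rested on list length and on 1 library.

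A region counts as gained where both libraries of 1 group have a peak and neither library of the other has, and as lost in the reverse case. Hypoxia in monoculture gained 6 of 24 member regions (25%), where 17.7% of all regions were gained, and lost none (0.179% of all). The count was 6 without the shortest list and 11 without monoculture normoxia 1. Leaving a library out removes a condition, so such counts can only stay or rise. Shares over all regions were not computed for counts with a library left out. Hypoxia in co-culture gained 5 (20.8%, against 6.09% of all) and lost none (2.05%), with 8 gained without co-culture hypoxia 2. Co-culture in normoxia gained 2 (8.33%, against 12.5%) and lost none (0.181%). That count was 7 without monoculture normoxia 1 and 4 without co-culture normoxia 1. Co-culture in hypoxia gained 4 (16.7%, against 5.83%) and lost 1 (4.17%, against 3.76%), with 3 lost without co-culture hypoxia 1 and 2 lost without monoculture hypoxia 2. Over all libraries, 11 member regions of 6 genes (45.8%) had peaks in hypoxic libraries only, against 33.7% of all regions, and none had peaks in normoxic libraries only, against 8.4%. Comparisons within monoculture and within co-culture share libraries with the comparisons within each oxygen level.

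With equal numbers of peaks, the monocultures gained no member region with hypoxia (3.59% of all) and lost none (2.49%), and hypoxia in co-culture gained 3 (12.5%, against 2.64%) and lost none (2.78%). Co-culture in normoxia gained none (2.37%) and lost none (1.43%), while co-culture in hypoxia gained 5 (20.8%, against 3.58%) and lost 1 (4.17%, against 3.4%). The 5 were the Fos start, the region 12000 bp after the Fos start, the nearer upstream region of Junb, and the regions of Fosl2 and Jund. Hypoxia in co-culture gained the first 3 of these. The region lost was the one past the end of Batf. Peaks of member regions in hypoxic libraries only numbered 3 (12.5%, against 9.71%), and in normoxic libraries only 2 (8.33%, against 9.98%).

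**Figure D2:**
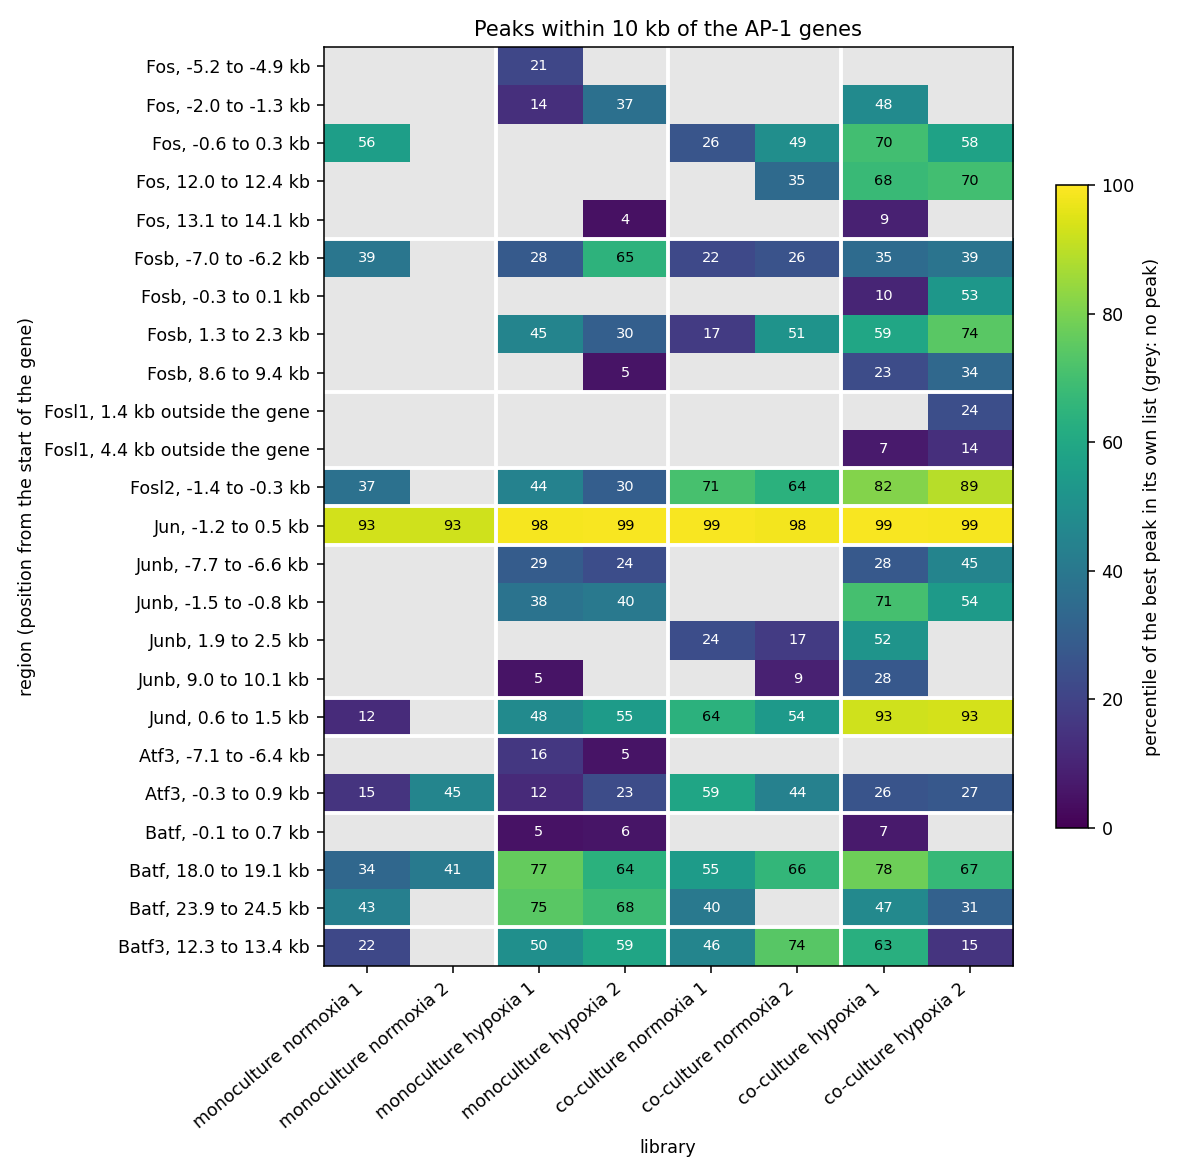
Percentile of each member region by −log10 p within its own list, for the 24 regions (rows, with their distance from the gene's start where a start was given) and the 8 libraries (columns). Grey cells have no peak: Jun is above 92 in every column, and the first 2 columns, monoculture normoxia, hold 9 and 3 peaks.

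Jun, which encodes the founding member of the family, had 1 region, chr4:95051765-95053431, over its start, reaching from 1209 bp before to 457 bp into the gene. The antisense gene Junos overlaps it, and open chromatin there cannot be given to either gene. Its percentile was 93.3 and 92.8 in monoculture normoxia, 98.5 and 99.0 in monoculture hypoxia, 99.0 and 98.3 in co-culture normoxia and 99.2 and 98.5 in co-culture hypoxia. The 2 libraries of monoculture normoxia were the lowest. The −log10 p was 35.5 and 30.2 there and between 92.75 and 160 in the other 6, though this value also grows with depth. Ranked within the 6375 regions present in all 8 libraries, Jun stood at 86.9 and 88.9 in monoculture normoxia and between 94.5 and 96.7 elsewhere. Monoculture normoxia thus did not overlap with the other libraries. How many of the 6375 regions set it apart in this way was not counted. The promoter sequence shown for Jun lay inside the Jun region.

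Ranks within such a common set can be set side by side, since the set has the same size in each library. They were turned into normal scores, where 0 is the middle of the set and 1 is 1 SD of a normal distribution above it, and fitted with limma, with Benjamini-Hochberg adjustment over all regions of the set. For Jun the score difference with hypoxia was 0.28 (SE 0.185, limma adjusted p = 0.328) and with co-culture 0.31 (SE 0.185, adjusted p = 0.269). Neither passed 0.05. Its interaction was −0.46 (adjusted p = 0.706).

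Over all 8 libraries, limma called 643 of 6375 regions for oxygen (10.1%, with 4.83% higher and 5.25% lower under hypoxia) and 690 for culture (10.8%, with 4.99% higher and 5.84% lower in co-culture), and 0 for the interaction (0%), for which 625 had an unadjusted p under 0.05. The fit held 3 member regions, those of Jun and Atf3 over their starts and the one inside Batf, and called none of them. These totals rest on single libraries. The oxygen count was 994 without monoculture normoxia 1, 326 without co-culture normoxia 1, and 0 to 70 without monoculture hypoxia 1 or 2, co-culture normoxia 2 or co-culture hypoxia 1 or 2. The culture count was 201 without co-culture hypoxia 1, and 0 without monoculture hypoxia 1 or 2, co-culture normoxia 1 or 2 or co-culture hypoxia 2. Of the 3 member regions, 2 had an unadjusted p under 0.05 for oxygen and none for culture, where 29.9% and 32% of all regions had one. The median score difference of the 3 was 0.28 for oxygen and 0.31 for culture, against −0.0025 and 0.0059 over all 6375 regions.

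Jund encodes a Jun protein that most cells make without a stimulus. Its region, chr8:70698388-70699210, lay inside the gene, 649 to 1471 bp after the annotated start. No peak covered that start, the only one used for Jund here. Its percentile was 12.2 in monoculture normoxia 1, with no peak in replicate 2, 47.7 and 55.0 in monoculture hypoxia, 64.1 and 53.5 in co-culture normoxia, and 92.7 and 93.5 in co-culture hypoxia. Hypoxic co-culture was the highest group, and its −log10 p of 64.1 and 69.4 stood beside 6.74 to 20.2 in the other libraries with a peak.

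A fit without monoculture normoxia 2 brought in the regions that this list alone lacked. It held 8830 regions and 7 member regions, and assumed that the single library of monoculture normoxia varied like the other groups. Within that set Jund stood at 3.99 in monoculture normoxia, 18.4 and 23.6 in monoculture hypoxia, 31.1 and 19.7 in co-culture normoxia and 78.3 and 85.1 in co-culture hypoxia. It rose with hypoxia by 1.26 (SE 0.210, limma adjusted p = 0.0219) and with co-culture by 1.40 (SE 0.210, adjusted p = 0.0246), and its interaction, 0.64 (SE 0.420, adjusted p = 0.544), did not pass. The oxygen call was lost without monoculture hypoxia 1 (limma adjusted p = 0.0877), monoculture hypoxia 2 (0.0666) or co-culture normoxia 2 (0.0504). The difference was 1.15 to 1.33 over all 6 libraries left out in turn. The culture call was lost without monoculture hypoxia 1 (0.0637), monoculture hypoxia 2 (0.0888) or co-culture hypoxia 2 (0.0616), and the difference was 1.32 to 1.49 over all 6. Of all 8830 regions, 8.4% were called for oxygen (4.73% higher, 3.67% lower) and 10% for culture (5.38% higher, 4.63% lower), and none for the interaction (1116 at an unadjusted p under 0.05). With 1 more library left out, the oxygen count fell from 742 to 0 without monoculture hypoxia 1 or 2, 162 without co-culture normoxia 2, 111 without co-culture hypoxia 1 and 240 without co-culture hypoxia 2. The culture count fell from 884 to 0 without monoculture hypoxia 1 or 2 or co-culture hypoxia 2, and to 390 without co-culture normoxia 2. The member regions called were 1 of 7 for oxygen (Jund) and 2 of 7 for culture (Jund and Fosl2), all higher. Their medians were 0.15 for oxygen and 0.31 for culture, against −0.0097 and −0.00012 over the 8830 regions. Peaks at glial markers were seen in co-culture alone, and the part of glioma cells in the culture values was not tested.

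**Figure D3:**
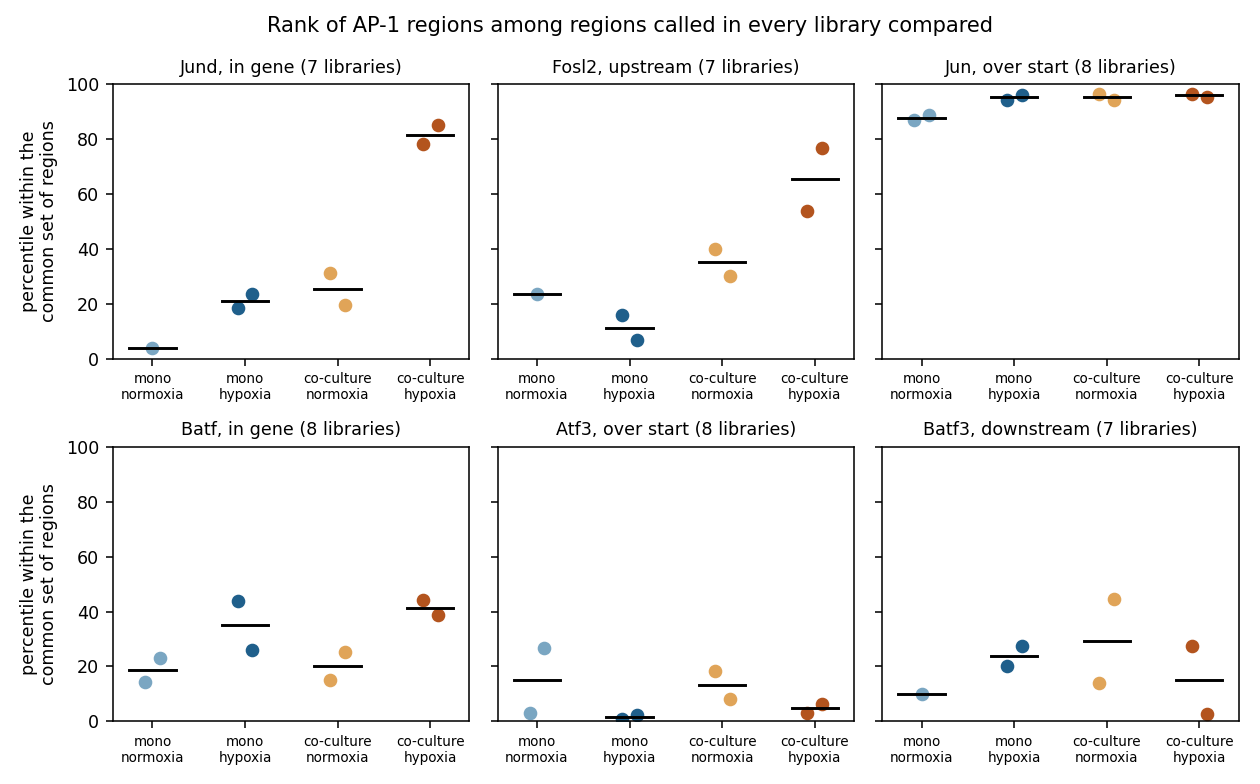
Percentile of 6 member regions within the common set of regions (y axis), by group, with 1 point per library and a line at the group mean. The Jun, Batf and Atf3 panels rank within the 6375 regions of 8 libraries, and the Jund, Fosl2 and Batf3 panels within the 8830 regions of 7, where monoculture normoxia is a single point. Jund reaches 78.3 and 85.1 and Fosl2 53.9 and 76.8 in co-culture hypoxia.

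Junb, an immediate early Jun protein, had 4 regions and none over its start. The farther upstream region, chr8:84985394-84986425, lay 7677 to 6646 bp before the start of Junb and 2351 bp from another coding gene, Hook2. It had a percentile of 29.2 and 23.8 in monoculture hypoxia and 28.0 and 45.3 in co-culture hypoxia. The nearer, chr8:84979579-84980218, lay 1470 to 831 bp before the start and stood at 38.2 and 40.2 in monoculture hypoxia and 70.7 and 54.4 in co-culture hypoxia. Both had no peak in any of the 4 normoxic libraries. They were the 2 member regions (8.33%) that divided the 4 hypoxic libraries from the 4 normoxic ones, as did 2.08% of all regions. None of the 24 was the reverse (0.0196% of all), and none divided all co-cultures from all monocultures (gained 1.98%, lost 0.027%). In lists of equal number the nearer region was left in the 2 libraries of co-culture hypoxia and the farther in none, so no member region divided the oxygen levels (gained 0.52% of all, lost 0.436%) or the cultures (gained 0.493%, lost 0.243%).

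The region 98 bp past the end of Junb, chr8:84976238-84976811, went another way. It was gained by co-culture in normoxia, with percentiles of 23.5 and 17.4, had a peak in co-culture hypoxia 1 at 51.8, and had none in the 4 monocultures. The fourth, chr8:84968631-84969790, overlapped Rnaseh2a and Prdx2, and had peaks at 5.15, 9.04 and 27.7 in monoculture hypoxia 1, co-culture normoxia 2 and co-culture hypoxia 1.

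Fos, the prototype immediate early gene, had 5 regions. Its start, chr12:85473334-85474210, stood at 55.9 in monoculture normoxia 1, 26.4 and 49.4 in co-culture normoxia, and 69.8 and 57.7 in co-culture hypoxia. It had no peak in monoculture normoxia 2 or in either library of monoculture hypoxia, so co-culture gained it in hypoxia. A region 1995 to 1319 bp upstream, chr12:85471895-85472571, had peaks in monoculture hypoxia at 13.6 and 37.0, was also present in co-culture hypoxia 1 at 47.9 and in no normoxic library. A region 12000 to 12435 bp after the start, chr12:85485890-85486325, was seen in co-culture alone, at 34.7 in 1 normoxic library and at 67.8 and 69.7 in hypoxia. The region 5240 to 4873 bp upstream had 1 peak, in monoculture hypoxia 1 at 21.2. The region farthest downstream had 2, in monoculture hypoxia 2 at 4.41 and co-culture hypoxia 1 at 9.2. Within co-culture, the score of the Fos start differed by 0.71 between hypoxia and normoxia (SE 0.326, limma adjusted p = 0.236) in a fit over the 13617 regions common to those 4 libraries, and did not pass.

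Fosb, also an immediate early gene, had 4 regions. The region over its start, chr7:19310034-19310386, had a peak in co-culture hypoxia alone, at percentiles of 10.2 and 53.0, and the Fosb sequence shown lies there. The region inside the gene, chr7:19307865-19308865, 1253 to 2253 bp after the start, had no peak in monoculture normoxia, and stood at 45.2 and 30.3 in monoculture hypoxia, 17.4 and 51.2 in co-culture normoxia, and 59.1 and 74.5 in co-culture hypoxia. It was gained by hypoxia in monoculture and by co-culture in normoxia. A region 8643 to 9411 bp after the start, chr7:19300707-19301475, which overlaps Gm26802, was at 5.44 in monoculture hypoxia 2 and at 23.4 and 33.9 in co-culture hypoxia. The region 6981 to 6181 bp upstream, chr7:19316299-19317099, was present in all libraries but monoculture normoxia 2, at 21.9 to 64.5. In the fit over 7 libraries that region differed by 0.15 with hypoxia (limma adjusted p = 0.755) and by −0.72 with co-culture (adjusted p = 0.126).

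**Figure D4:**
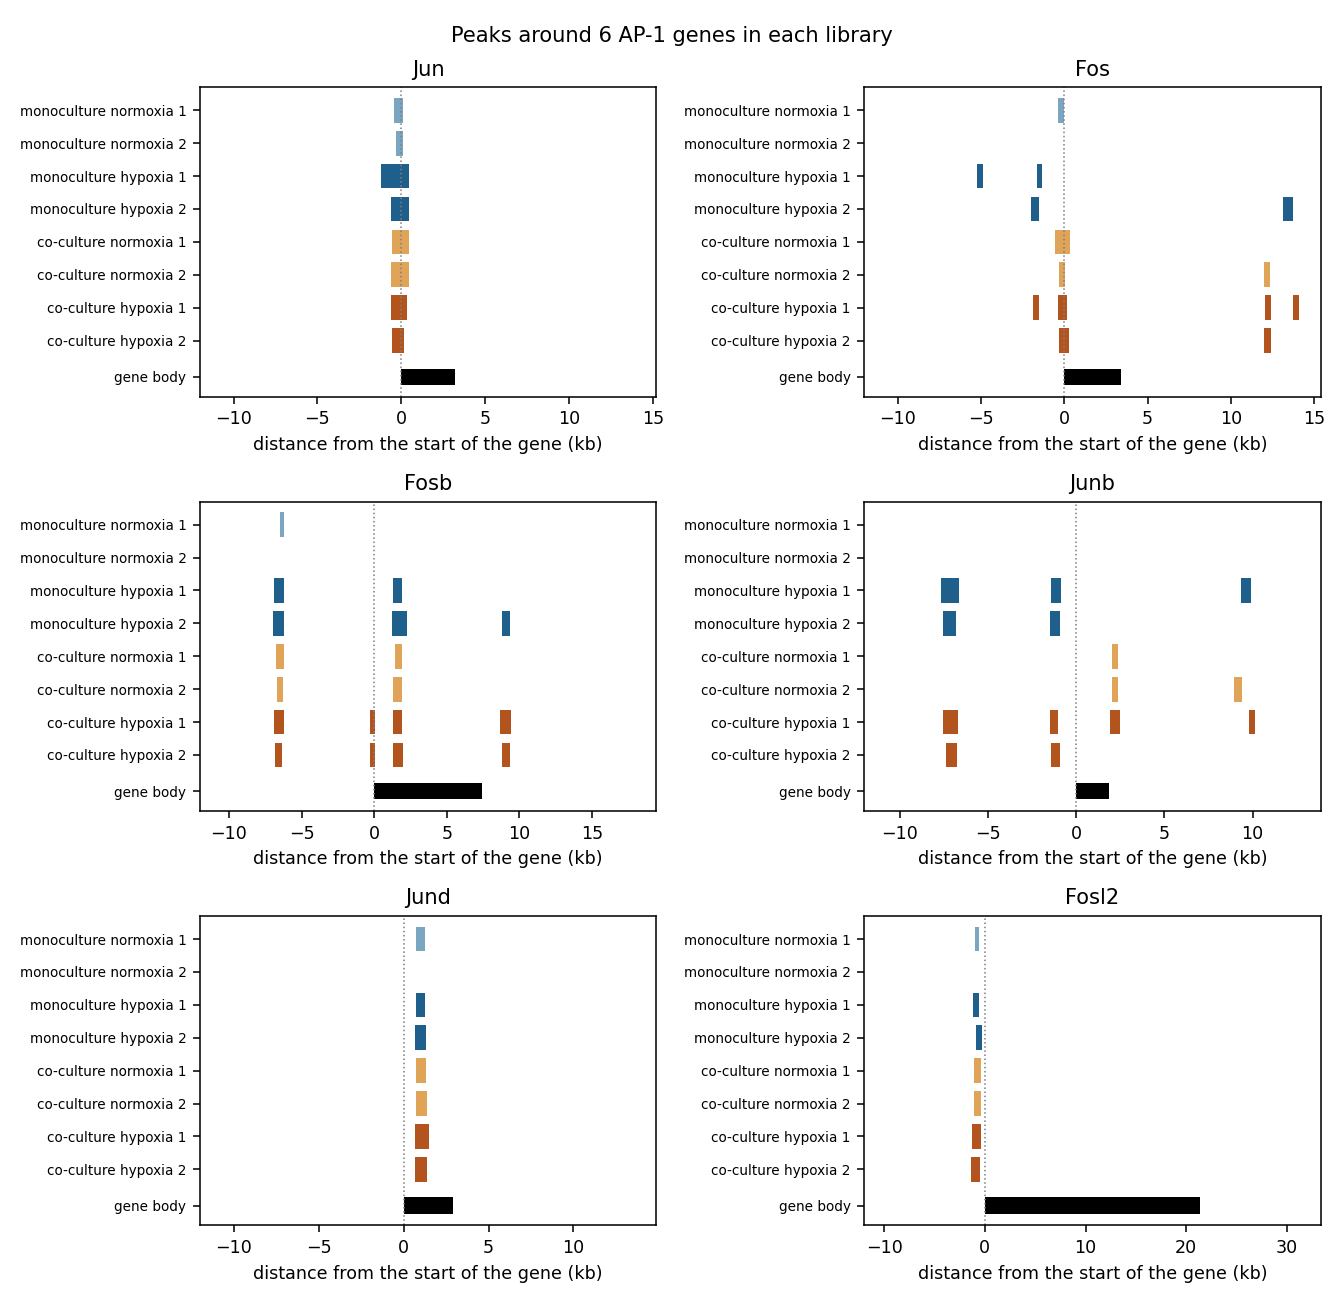
Peaks of each library around 6 member genes, drawn to scale by distance from the gene's start (x axis, kb, with the gene running to the right) and with the gene body in black. Peaks over the Fosb start are seen in the 2 rows of co-culture hypoxia, and the 2 upstream regions of Junb in the 4 hypoxic rows.

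Fosl2, which encodes a Fos protein without a strong activation domain, had 1 region, chr5:32135088-32136136, 1384 to 336 bp before its start. It stood at 37.4 in monoculture normoxia 1, 44.2 and 29.8 in monoculture hypoxia, 70.8 and 63.7 in co-culture normoxia and 81.6 and 89.2 in co-culture hypoxia, with no peak in monoculture normoxia 2. The number of all regions that separate the cultures by percentile was not counted. The Fosl2 region stood higher in every co-culture library than in any monoculture library with a peak. Within the 8830 common regions it was at 23.7 in monoculture normoxia 1, 15.8 and 6.85 in monoculture hypoxia, 40.05 and 30.1 in co-culture normoxia, and 53.9 and 76.8 in co-culture hypoxia. It rose with co-culture by 0.99 (SE 0.248, limma adjusted p = 0.0413). The call was lost when monoculture hypoxia 1, monoculture hypoxia 2, co-culture normoxia 1, co-culture normoxia 2 or co-culture hypoxia 2 was left out as well, with differences of 0.861 to 1.09 and adjusted p of 0.0624 to 0.129, and was kept without co-culture hypoxia 1 (1.15, adjusted p = 0.0444). Its difference with hypoxia was 0.14 (SE 0.248, adjusted p = 0.740).

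Fosl1, which encodes FRA-1, had 2 regions and both lay in neighbouring genes. The one in Ccdc85b, chr19:5457331-5457648, had 1 peak, in co-culture hypoxia 2 at 24.0. The one over Fibp, chr19:5460335-5460897, 4397 bp outside Fosl1, had peaks in co-culture hypoxia alone, at 7.04 and 13.6. No peak lay on Fosl1 itself in any library.

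Atf3, a stress-induced member that also acts as a repressor, had a region over its start, chr1:191182398-191183635, in all 8 libraries. It stood at 14.9 and 45.4 in monoculture normoxia, 11.9 and 23.1 in monoculture hypoxia, 58.8 and 44.0 in co-culture normoxia and 26.1 and 27.4 in co-culture hypoxia. The hypoxic libraries lay between 11.9 and 27.4 and overlapped the normoxic ones through monoculture normoxia 1. Within the common set of 6375 regions its percentiles were 3.04 and 26.8 in monoculture normoxia, 0.714 and 2.38 in monoculture hypoxia, 18.5 and 8.12 in co-culture normoxia, and 2.97 and 6.47 in co-culture hypoxia. Every hypoxic library was below every normoxic one but monoculture normoxia 1. The score difference with hypoxia was −0.76 (SE 0.294, limma adjusted p = 0.121), and it passed in 1 of the 8 fits with a library left out, without monoculture normoxia 1 (−1.12, adjusted p = 0.0244). In the other 7 it ran from −0.90 to −0.53 with adjusted p of 0.158 to 0.329. The summit of the strongest peak was not at 1 place: it lay 580 to 837 bp inside the gene in 6 libraries, and at −165 and −162 bp, before the start, in the 2 libraries of co-culture hypoxia. The second region, 7057 to 6432 bp upstream, chr1:191189765-191190390, had peaks in monoculture hypoxia alone, at 16.2 and 5.31, and was the 1 member region lost by co-culture in hypoxia in the lists as deposited.

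Batf and Batf3 encode short proteins of a basic region and zipper that pair with Jun proteins and act with interferon regulatory factors in immune cells. A region inside Batf, chr12:85704695-85705851, 17975 to 19131 bp after the start, was present in all 8 libraries and in all 8 lists of equal number. It was at 33.6 and 41.2 in monoculture normoxia, 76.5 and 64.0 in monoculture hypoxia, 54.9 and 66.1 in co-culture normoxia, and 78.0 and 66.9 in co-culture hypoxia. Within the common set of 6375 regions it stood at 14.2 and 23.0 in monoculture normoxia, 43.8 and 26.1 in monoculture hypoxia, 15.0 and 25.2 in co-culture normoxia, and 44.1 and 38.7 in co-culture hypoxia, so that all hypoxic libraries were above all normoxic ones. The margin was small, with 26.1 as the lowest hypoxic value and 25.2 as the highest normoxic one. The number of the 6375 regions that separate the oxygen levels like this was not counted. In limma, 29.9% of them had an unadjusted p under 0.05 for oxygen. The score of the region inside Batf differed by 0.57 with hypoxia (SE 0.210, limma adjusted p = 0.106) and by 0.12 with co-culture (adjusted p = 0.730), and neither passed. The Batf start, chr12:85686609-85687450, had weak peaks at 4.83 and 5.71 in monoculture hypoxia and 7.42 in co-culture hypoxia 1. The region 1577 bp past the gene, chr12:85710664-85711171, was at 43.3 in monoculture normoxia 1, 74.6 and 68.4 in monoculture hypoxia, and 47.2 and 30.9 in co-culture hypoxia. Of the normoxic co-cultures, replicate 1 had it at 40.5 and replicate 2 had no peak. Batf3 had 1 region, chr1:191110762-191111774, 1819 bp past the gene, absent in monoculture normoxia 2 and otherwise between 15.0 and 73.9. The lowest and second highest of its values, 15.0 and 63.0, were the 2 replicates of co-culture hypoxia. Its score differences in the fit over 7 libraries were −0.04 with hypoxia (limma adjusted p = 0.953) and 0.07 with co-culture (adjusted p = 0.916).

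Fits over the 4 libraries of a single comparison, chosen after the data were seen, held 11 member regions for co-culture in hypoxia, 9 for hypoxia in co-culture, and 3 each for hypoxia in monoculture and co-culture in normoxia, the same number as the fit over 8 libraries. Between hypoxic co-culture and hypoxic monoculture, 11 member regions were among the 14386 common ones. Jund was at 85.4 and 90.3 in co-culture against 29.9 and 36.5 in monoculture, and rose by 1.61 (SE 0.270, limma adjusted p = 0.0498). Leaving out any 1 of the 4 libraries ended that call, as it did every other call among all regions. The Jund difference was then 1.47 to 1.73. Fosl2 differed by 1.56 (SE 0.327, adjusted p = 0.0507) and the region past Batf by −1.01 (SE 0.269, adjusted p = 0.0641), and both missed the threshold. The region inside Fosb differed by 0.82 (adjusted p = 0.158) and the nearer upstream region of Junb by 0.65 (adjusted p = 0.144). Jun differed by 0.05 (adjusted p = 0.907). Of all 14386 regions 3.41% were called, and of the 11 member regions 1, where 2.12% of all were called higher. The members' median was 0.28 and that of all regions −0.04. Each hypoxic co-culture library also had a peak at 2 of the 15 glioma and glial markers, and no monoculture library had one. Sox2 had a peak in both of these co-culture libraries, and Nes and S100b in 1 each. In contrast, 12 of the 15 markers had no peak in any library. The bearing of these peaks on the differences was not tested.

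In the other 3 comparisons limma called no region with all 4 libraries. Hypoxia in monoculture had 0 of 7002 regions called (1195 at an unadjusted p under 0.05), hypoxia in co-culture 0 of 13617 (3248), and co-culture in normoxia 0 of 6899 (756), each with 0% as background. Without monoculture normoxia 1 the counts were 686 of 8456 for hypoxia in monoculture and 478 of 8150 for co-culture in normoxia, with a single library left in that group, and with any other library left out they were 0. For hypoxia in co-culture, with 9 member regions, Jund differed by 1.37 (SE 0.289, limma adjusted p = 0.101), the region inside Fosb by 0.96 (adjusted p = 0.241), Fosl2 by 0.63 (adjusted p = 0.274) and Atf3 by −0.82 (adjusted p = 0.172).

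Genes around the family were taken from 4 lists and read in the fit over 8 libraries. Of 16 relatives and partners, with 9 regions tested, none was called, and of 18 signalling genes upstream, with 6 tested, none was called for oxygen or culture. Of 22 immediate early and feedback genes, with 8 regions tested, 1 fell with hypoxia and 1 rose with co-culture. Over all regions of this fit 4.83% rose and 5.25% fell with hypoxia, and 4.99% rose and 5.84% fell with co-culture, so that 0 or 1 call among 6 to 9 regions is near the background for each list. Nr4a1, an immediate early nuclear receptor (chr15:101283319-101284559), fell by 1.34 (SE 0.260, limma adjusted p = 0.0203). Btg1, an antiproliferative gene (chr10:96616427-96617105), rose by 1.29 (SE 0.212, adjusted p = 0.0211). Of 18 AP-1 target genes, with 7 regions tested, 1 fell with co-culture. It lay at Mmp12, which encodes macrophage elastase (chr9:7336804-7337620), with a difference of −1.18 (SE 0.236, limma adjusted p = 0.0243). With a library left out the adjusted p ranged from 0.0168 to 0.0948 for Nr4a1, from 0.0203 to 0.0991 for Btg1 and from 0.0284 to 0.110 for Mmp12. Regions with peaks in hypoxic libraries only made up 45.8% for the target genes, as for the AP-1 members, 33.3% for the immediate early genes, 30.2% for signalling and 20.5% for relatives, against 33.7% of all regions. With equal numbers of peaks the order turned: relatives stood at 28.2%, signalling at 15.9%, the AP-1 members at 12.5%, the targets at 10.4% and the immediate early genes at 9.52%, against 9.71% of all regions.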

How the data were processed

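ATAC-seq peak lists of 8 libraries, 1 list per library, were used as the authors deposited them. Per the submitters' processing notes, Trimmomatic 0.36, HISAT2 2.1.0, Picard, SAMtools, deepTools and MACS2 2.1.1.2 were used with build mm10 (GRCm38); their order, read filters and any Tn5 shift are not given in the sources used here. Each deposited peak carries a score, a fold enrichment (a ratio), a −log10 p-value, a −log10 q-value and a summit offset in bases; every list reaches down to a −log10 q of about 2. The lists hold no read counts, so depth is unknown and no interval was computed.

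Peaks of all lists overlapping by at least 1 bp were merged into regions and assigned to genes of the RefSeq annotation (GRCm38.p6) within 10 kb. A region's value in a library is that of its peak with the highest −log10 p. Regions common to the libraries compared were ranked per library, turned into normal scores and fitted with limma 3.58.1 in R 4.3.3 (culture, oxygen and interaction, empirical Bayes), with Benjamini-Hochberg adjustment over all regions and a threshold of 0.05; the procedure was tested on simulated data. Other steps used Python 3.11.15 and pandas 2.3.3. Motifs were searched on both strands of the 250 bases before each start.

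All 10 members were described; their regions are named where they cover the start, pass a fit, are gained or lost, or are the member's best. Of each other list, up to 3 called genes with the smallest adjusted p are named. Members and lists were chosen with earlier results of these data known. Alternatives were lists of equal number, a −log10 q of at least 5, windows of 250 bp on each side of summits, a distance of 5 kb, quantile normalisation, a replicate block and each library left out. Replicate scores correlated at 0.755 to 0.899 (4 pairs) and those of different groups at 0.535 to 0.784 (24 pairs). Fosl1 has no promoter window here, and protein sequences were not used here.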

Additional observations from a re-analysis of the deposited data

Results flagged for a closer look

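The region upstream of Fosl2 was singled out because its oxygen difference took opposite signs in the 2 cultures. Within the 8830 regions common to 7 libraries, it stood at 15.8 and 6.85 in monoculture hypoxia against 23.7 in the single monoculture normoxia library, and at 53.9 and 76.8 in co-culture hypoxia against 40.05 and 30.1 in co-culture normoxia. The difference between the 2 oxygen effects was 1.33 on the score scale (SE 0.495), and limma gave it an adjusted p of 0.340, so it did not pass. Groups of 2 libraries were too small for a check of single outlying libraries.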

How the results depend on the processing

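In lists of equal number the oxygen difference in member regions was 1 (8.75 as deposited) and the interaction 4 (−2.5), gains with hypoxia numbered 0 in monoculture (6) and 3 in co-culture (5), gains with co-culture in normoxia 0 (2), regions called for culture 409 of 3418 (12%, against 690 of 6375 or 10.8%), and the culture difference inside Batf −0.053 (0.12). With 5 kb the oxygen difference was 6. Co-culture in hypoxia lost 0 with a −log10 q of at least 5, 0 with 5 kb and 2 with summit windows, which also gave 1 loss for hypoxia in co-culture; the cause was not tested. Leaving out each library in turn gave 0 to 994 regions called for oxygen, 0 to 997 for culture and 0 for the interaction. The member differences then ran from 7.25 to 10.25 for oxygen, 2.75 to 5.75 for culture and −5.5 to 0.5 for the interaction. Gains ran from 6 to 11 for hypoxia in monoculture, 6 to 8 for hypoxia in co-culture, 2 to 7 for co-culture in normoxia and 4 to 5 for co-culture in hypoxia. Losses ran from 0 to 1, 0 to 1, 0 to 0 and 1 to 3 in the same order. Leaving out a library removes a condition for a gain or a loss, so neither count could fall. The ranges of gains and losses therefore cannot show whether they rest on a single library. The culture difference ran from −0.025 to 0.56 at the Atf3 start and from −0.0065 to 0.23 inside Batf, and the oxygen difference at Fosl2 from −0.0092 to 0.29.

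Same-numbered libraries had deviations that correlated at −0.04 to 0.176, over 0.1 in 1 of 6 pairs of groups, so the numbers were not taken as pairs. With the replicate block limma called 602 regions for oxygen, 617 for culture and 0 for the interaction, and, over the 4 libraries of the comparison, 9 for hypoxia in monoculture (0 without it). With the replicate block Fosl2 lost its culture call over 7 libraries (adjusted p = 0.0544) and passed for co-culture in hypoxia (adjusted p = 0.0496, difference 1.56); no other call on a member region changed. The unknown depth and the 2 libraries per group limit what could be detected; a missing peak does not show closed chromatin.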
